A study of Mus musculus with 4 samples.

Results

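Cholesterol and fatty acid synthesis genes are described here in primary microglia, the macrophages that reside in the brain, cultured from mice and exposed or not to lysophosphatidylserine (LysoPS), a phospholipid that has lost a fatty acid chain and that activates GPR34, a receptor on microglia. The 34 members were taken as targets and regulators of the sterol regulatory element-binding proteins SREBP2 and SREBP1. They were chosen by name, with earlier results of these data known, out of 51826 gene models in the deposited table. All 34 were found there and tested. They were set in a sterol branch of 23 genes and a fatty acid branch of 11 genes. Messenger RNA was sequenced in 2 LysoPS libraries, from cultures treated for 4 h, and 2 mock libraries, labelled untreated. All 4 came from C57BL/6 cells: brains of newborn mice were freed of meninges, grown as mixed cultures for 2 weeks, and the microglia shaken off. All 4 sample descriptions begin with the letters WT. Beyond these letters and the strain, no genotype was found in the labels. No dose of LysoPS and no statement that replicates were separate cultures or animals was found there either. The p-values therefore measure only the spread between these samples, which may be technical.

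SREBPs are made as membrane proteins of the endoplasmic reticulum, where the escort protein SCAP and the INSIG anchors hold them while sterols are plentiful. When sterols run low, SCAP carries them to the Golgi, proteases free their transcription factor part, and it enters the nucleus. SREBP2 mainly drives genes of cholesterol synthesis, and SREBP1 mainly those of fatty acid synthesis. The brain makes its own cholesterol, and glial cells are a main site of that synthesis.

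Depth ranged from 34689045 to 45193959 counts in LysoPS libraries and from 30001098 to 41572340 counts in mock libraries. The cultures held RNA of several cell types. Each of 18 microglia and macrophage marker genes had counts in every library, and their summed level was 17832 and 15761 CPM (counts scaled to library size with edgeR's TMM factors) in LysoPS libraries and 6747 and 6163 CPM in mock libraries. Of their 19 gene models, 13 were higher, 1 lower and 5 did not pass, with a median log2 fold change of 0.54. Lyz2 alone held 10512.5 and 9123 CPM of the microglia and macrophage sum in LysoPS libraries, and 2929 and 2700 CPM in mock libraries. Astrocyte markers were present as well: 15 of 15 were measured above 0 in every library, summing to 5546 and 6299 CPM in LysoPS libraries and 11752 and 10643 CPM in mock libraries. Of these 15, 13 were lower and none higher, with a median of -1.06. Gfap alone held 2679 and 2900 CPM of the astrocyte sum in LysoPS libraries, and 5970 and 5683 CPM in mock libraries. For comparison, 12.6% of all genes tested were lower and 12.8% higher. Of other marker lists, 3 of 10 fibroblast and mural genes were lower and none higher, 1 of 12 oligodendrocyte lineage genes was lower and 6 higher, 2 of 5 tested endothelial genes were lower and none higher, and 1 of 9 neuron genes was higher and none lower. Fewer cells of a type and less RNA per cell cannot be told apart in such samples.

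Promoter letters of 4 members are shown because both branches are known targets of the same family of factors. RefSeq windows on GRCm38.p6 were found for 27 of the 34 members (19 sterol, 8 fatty acid), and the 250 bases upstream of each RefSeq start were searched on both strands. RefSeq starts can differ from those of the deposited gene models. The Idi1 window ends at 8885605, inside the deposited model, which starts at 8885501. The Insig1 window also ends inside its model, and the Hmgcs1 window ends before its model starts. Shown are the members with the smallest p-values in the sterol branch (Insig1, Idi1) and in the fatty acid branch (Fads2), and Hmgcs1, which was added after the search because it alone held the sterol core letters. Capitals mark CCAAT, the box bound by the factor NF-Y, in either orientation (ATTGG on the other strand), and the letters TCACNCCAC, a core of the sterol regulatory element. They are written 5′ to 3′ in the direction of the gene.
Insig1 (chr5:28071162-28071411, plus strand): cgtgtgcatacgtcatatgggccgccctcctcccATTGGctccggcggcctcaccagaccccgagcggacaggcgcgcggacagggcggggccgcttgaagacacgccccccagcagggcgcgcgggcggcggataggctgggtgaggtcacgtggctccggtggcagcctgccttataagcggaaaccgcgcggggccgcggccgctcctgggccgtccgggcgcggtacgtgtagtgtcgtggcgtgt
Idi1 (chr13:8885356-8885605, plus strand): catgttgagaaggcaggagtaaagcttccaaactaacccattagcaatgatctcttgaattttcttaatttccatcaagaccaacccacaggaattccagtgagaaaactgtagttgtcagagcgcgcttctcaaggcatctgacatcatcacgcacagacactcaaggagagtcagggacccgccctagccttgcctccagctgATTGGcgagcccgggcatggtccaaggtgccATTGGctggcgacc
Hmgcs1 (chr13:119690101-119690350, plus strand): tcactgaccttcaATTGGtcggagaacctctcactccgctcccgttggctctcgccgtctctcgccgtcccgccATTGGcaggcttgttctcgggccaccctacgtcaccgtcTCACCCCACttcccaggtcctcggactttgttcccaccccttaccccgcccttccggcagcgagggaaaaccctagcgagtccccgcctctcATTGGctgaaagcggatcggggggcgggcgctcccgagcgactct
Fads2 (chr19:10101504-10101753, minus strand): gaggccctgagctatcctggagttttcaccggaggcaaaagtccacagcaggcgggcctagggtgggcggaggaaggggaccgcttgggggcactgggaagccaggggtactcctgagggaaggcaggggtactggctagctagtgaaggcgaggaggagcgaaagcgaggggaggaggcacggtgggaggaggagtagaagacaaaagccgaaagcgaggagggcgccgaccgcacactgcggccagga

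The Hmgcs1 window held 3 CCAAT letters and 1 sterol core, whose leftmost base lies at -137 from the start. Idi1 held 2 CCAAT letters, Insig1 held 1 and Fads2 none. Among genes with a window, CCAAT was found in at least 1 window of 17 of 19 sterol genes and 4 of 8 fatty acid genes, beside 37.5% of all 27025 genes. The GC box GGGCGG was found in 18 of 19 sterol genes and 4 of 8 fatty acid genes, beside 35.4% of all genes. The E-box CANNTG was found in 12 of 19 sterol genes and 4 of 8 fatty acid genes, beside 69.3%. The strict sterol core was found in 1 sterol gene and 0 fatty acid genes, beside 1.22% of all genes. Such matches describe letters only, and some genes have more than 1 window. The 27025 genes were not limited to those tested for expression here, whereas every member was tested.

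Transcripts of both branches were lower in LysoPS-treated cultures than in mock cultures, with changes of -16.5% (Srebf2) to -52.7% (Insig1) in the members that passed the test. By edgeR's quasi-likelihood test with Benjamini-Hochberg adjustment over all 19057 genes tested, 26 of the 34 members fell at an adjusted p under 0.05 and 8 did not pass. None rose, either at that threshold, at an unadjusted p under 0.05 or by DESeq2. In the same test 12.6% of all genes were lower. The members were chosen with earlier results of these data known, so that share stands beside them as a description only. In the sterol branch 16 of 23 fell, with a median log2 fold change (LysoPS over mock) of -0.53, and in the fatty acid branch 10 of 11 fell, with a median of -0.58. The median over all genes tested was -0.01. Both LysoPS libraries lay below both mock libraries in 20 of 23 sterol and 10 of 11 fatty acid members, which was so for 34.5% of all genes tested, and no member lay above (32.5% of all genes). In these libraries the astrocyte markers had a median of -1.06, and the microglia and macrophage markers had a median of 0.54. The part of either in the members' change was not tested. Fewer members passed in both branches without mock replicate 1, without mock replicate 2 and without LysoPS replicate 2. Of all genes tested, fewer passed without either mock replicate, but more passed without LysoPS replicate 2. Over the fits without 1 library, the log2 fold change ranged from -1.13 to -1.03 for Insig1 and from -0.29 to -0.23 for Srebf2.

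**Figure D1:**
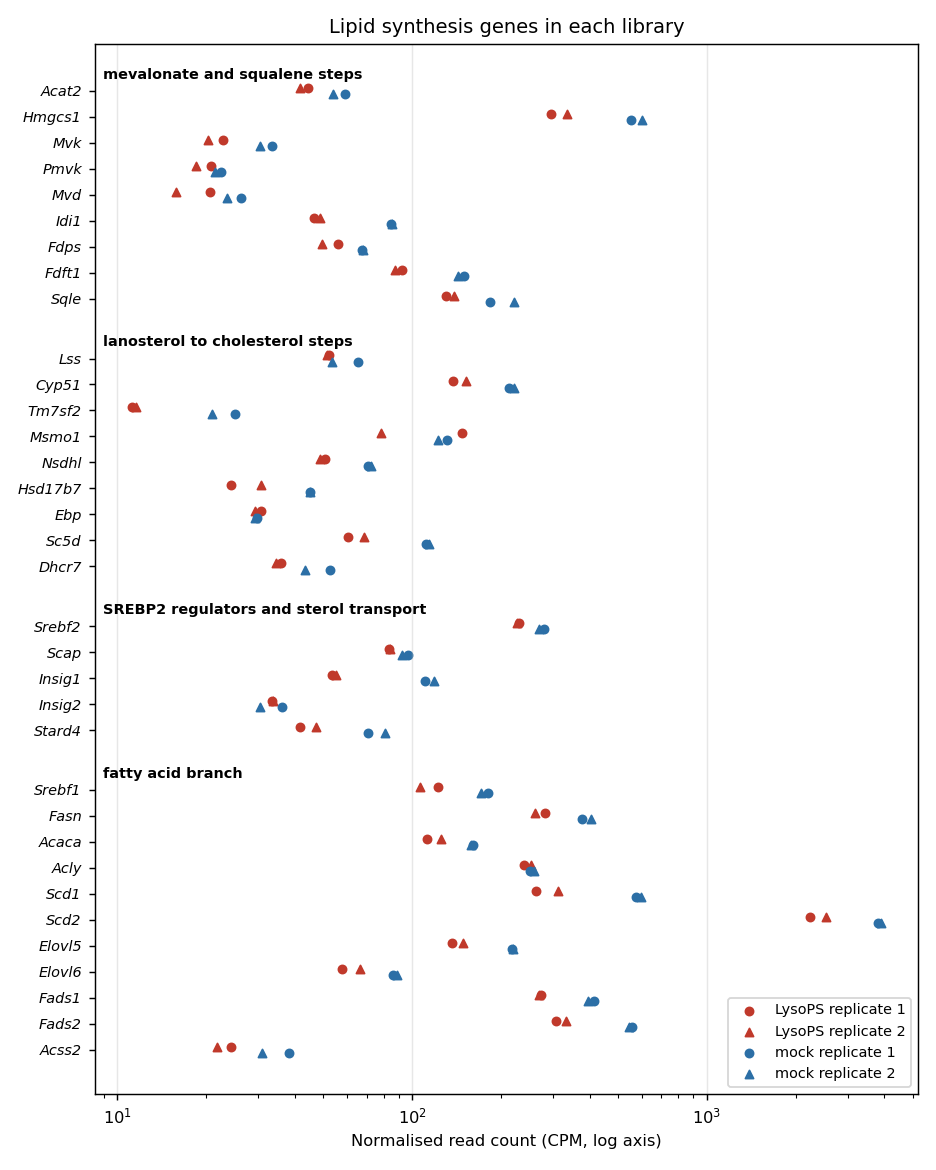
Normalised read count (CPM, log axis) of the 34 lipid synthesis genes in each of the 4 libraries, in 4 groups by role; LysoPS libraries are red and mock libraries blue, and each point is 1 library. In 30 of 34 genes both red points lie left of both blue points, and Msmo1, Ebp, Insig2 and Acly overlap.

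Summed over a branch, the authors' deposited TPM values, which are scaled per length and so allow genes to be added and compared, stood at 1161 and 1179 TPM in LysoPS libraries and 1861 and 1998 TPM in mock libraries for the sterol branch. The fatty acid branch stood at 1802 and 2057 TPM in LysoPS libraries, against 3403 and 3535 TPM in mock libraries. The change in the mean sum was -39.3% for sterol and -44.4% for fatty acid genes, and the groups did not overlap in either. The log2 ratio of TPM + 1 had a median of -0.14 over all genes tested, so TPM changes carry a general shift downward. The fatty acid to sterol ratio was 1.55 and 1.74 in LysoPS libraries and 1.83 and 1.77 in mock libraries. With 2 libraries against 2, the exact permutation test used for such single values cannot give a two-sided p under 0.333, and that was the value for this ratio; the difference between the branches is given as values, with no other test.

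**Figure D2:**
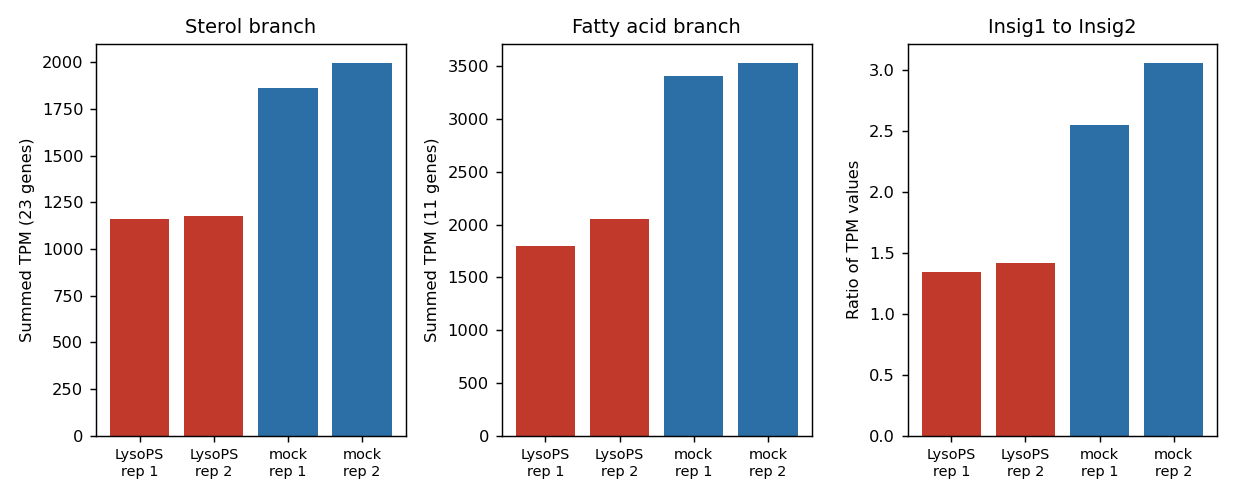
Summed deposited TPM of the 23 sterol genes and the 11 fatty acid genes, and the ratio of Insig1 to Insig2 TPM, in each library; each bar is 1 library, LysoPS red and mock blue. In all 3 panels both LysoPS bars are shorter than both mock bars, from 1161 against 1861 TPM in the sterol panel to a ratio of 1.35 against 2.55 in replicate 1.

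Levels between members differed widely. Scd2, a stearoyl-CoA desaturase that puts a double bond into saturated fatty acids, was the most abundant, with 838 ± 103 TPM in LysoPS cultures and 1529 ± 55.7 TPM in mock cultures (SD, n = 2 each). It made up 42.5% and 44.3% of the fatty acid branch's TPM in LysoPS libraries and 43.8% and 44.4% in mock libraries. Fads2, the delta-6 desaturase of polyunsaturated fatty acids, came next with 411 ± 38.6 TPM in LysoPS and 795 ± 0.825 TPM in mock cultures. Hmgcs1 was the most abundant sterol gene, with 188 ± 23.4 TPM in LysoPS and 387 ± 30.3 TPM in mock cultures. Hsd17b7 was the least abundant member, with 10.8 and 14.9 TPM in LysoPS libraries and 22.4 and 23.6 TPM in mock libraries. Neighbours in this order such as Fdft1 and Srebf1, at 111 ± 1.07 and 111 ± 0.646 TPM in mock cultures, lay within each other's spread.

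The early sterol steps turn acetyl-CoA into mevalonate, isoprenoids and then squalene. Of their 9 members 7 fell, beside 12.6% of all genes tested, with a median log2 fold change of -0.56. Hmgcs1 (ENSMUSG00000093930, chromosome 13, 119690462 to 119708086, GRCm38), the cytosolic HMG-CoA synthase, had 295 and 335 CPM in LysoPS libraries and 553 and 600 CPM in mock libraries. Idi1 (ENSMUSG00000058258, chromosome 13, 8885501 to 8892451), which isomerises the isoprenoid building block, had 46.5 and 48.8 CPM in LysoPS libraries and 84.8 and 85.4 CPM in mock libraries. In both genes the groups were far apart relative to the spread between replicates. The log2 fold change was -0.87 ± 0.09 (SE) for Hmgcs1, with an adjusted p of 0.00348, and -0.84 ± 0.07 for Idi1, with an adjusted p of 0.00238. Fdft1, squalene synthase, had 92.5 and 87.7 CPM in LysoPS libraries against 149 and 143 CPM in mock libraries. Its log2 fold change was -0.70 ± 0.07 (adjusted p = 0.00351). The gene overlaps Ctsb on the opposite strand, whose counts reached 3836% of its own in a library, and whether reads were counted by strand is not given in the sources used here.

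Sqle, squalene epoxidase and a control point of the pathway, had 130 and 139 CPM in LysoPS libraries against 184 and 221 CPM in mock libraries. Mvk, mevalonate kinase, had 22.9 and 20.4 CPM in LysoPS libraries against 33.5 and 30.4 CPM in mock libraries. LysoPS values were the lower ones in both genes, with log2 fold changes of -0.59 ± 0.11 (adjusted p = 0.0166) and -0.56 ± 0.11 (adjusted p = 0.0188). Acat2, the cytosolic thiolase that starts the pathway, fell by 0.40 on the log2 scale, and Fdps, which makes farnesyl diphosphate, fell by 0.36. Without mock replicate 2, Sqle stood at -0.45 (adjusted p = 0.0660), Mvk at -0.63 (0.0517), Acat2 at -0.47 (0.0864) and Fdps at -0.36 (0.179). Without mock replicate 1, Mvk stood at -0.49 (adjusted p = 0.0985), Acat2 at -0.33 (0.181) and Fdps at -0.37 (0.160), and without LysoPS replicate 2, Acat2 at -0.35 (0.0646) and Fdps at -0.27 (0.0774). Phosphomevalonate kinase Pmvk, at 20.8 and 18.4 CPM in LysoPS libraries and 22.4 and 21.5 CPM in mock libraries, did not pass (adjusted p = 0.306, 95% interval of the log2 fold change from -0.43 to 0.10). The decarboxylase Mvd had 20.6 and 15.8 CPM in LysoPS libraries and 26.2 and 23.5 CPM in mock libraries. It did not pass either (-0.45, adjusted p = 0.0946), but passed without LysoPS replicate 1 (-0.65, adjusted p = 0.0253), with the replicate block (-0.46, 0.0318) and with length and GC trends removed (-0.45, 0.0475). In LysoPS replicate 1 the model Gm20388, on the opposite strand, held 133 counts, 19.3% of the Mvd count, and 0 in each of the other 3 libraries. On log2(TPM + 1) with limma both Pmvk (-0.38, adjusted p = 0.0374) and Mvd (-0.60, adjusted p = 0.0332) passed.

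The late sterol steps close squalene into lanosterol and trim it to cholesterol. Of their 9 members 6 fell, beside 12.6% of all genes tested, with a median of -0.53. Sc5d, the desaturase of a late intermediate (ENSMUSG00000032018, chromosome 9, 42251595 to 42264256), had 60.8 and 68.5 CPM in LysoPS libraries and 111 and 114 CPM in mock libraries. Cyp51, lanosterol demethylase, had 137 and 152 CPM in LysoPS libraries and 213 and 221 CPM in mock libraries. Nsdhl, which removes the oxidised methyl group, had 50.5 and 48.5 CPM in LysoPS libraries and 70.5 and 72.7 CPM in mock libraries. The groups were separate in all 3 genes, with log2 fold changes of -0.80 ± 0.09 for Sc5d (adjusted p = 0.00422), -0.59 ± 0.08 for Cyp51 (0.00672) and -0.53 ± 0.07 for Nsdhl (0.00803). Without mock replicate 2, Nsdhl stood at -0.51 with an adjusted p of 0.0614. Cyp51 overlaps Akap9 on the opposite strand, whose counts reached 93.9% of its own.

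Tm7sf2, a sterol C14 reductase, had the largest change among the late steps, with 11.2 and 11.6 CPM in LysoPS libraries and 25.0 and 20.9 CPM in mock libraries (log2 fold change -1.01 ± 0.13, adjusted p = 0.00594). The transcript length implied by its deposited counts and FPKM varied by 1.41 times between libraries, and Vps51, with up to 335% as many counts, overlaps it on the same strand. Its deposited TPM of 21.7 and 21.9 in LysoPS libraries also lay below the 39.1 and 42.6 of mock libraries. Hsd17b7, a sterol ketoreductase, had 24.3 and 30.7 CPM in LysoPS libraries against 45.0 and 44.9 CPM in mock libraries. Its log2 fold change was -0.71 ± 0.13 (adjusted p = 0.0174), with an adjusted p of 0.0598 without mock replicate 1 (-0.71) and 0.0635 without mock replicate 2 (-0.71). Dhcr7, the reductase of the last step, fell by 0.45 on the log2 scale (adjusted p = 0.0454). Its implied length varied by 2.04 times between libraries. The Dhcr7 call was lost when mock replicate 1 (-0.30, adjusted p = 0.213), LysoPS replicate 1 (-0.48, 0.0828) or LysoPS replicate 2 (-0.41, 0.0937) was left out. It was also lost with DESeq2's size factors (-0.43, adjusted p = 0.0513), limma-voom (-0.43, 0.0510) and limma on TPM (-0.82, 0.0828).

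The other late members did not pass. Lss, which closes the ring to lanosterol, had 52.1 and 51.6 CPM in LysoPS libraries against 65.5 and 53.3 CPM in mock libraries, with an interval of the log2 fold change from -0.49 to 0.10. Ebp, the sterol isomerase, had 30.6 and 29.4 CPM in LysoPS libraries and 29.8 and 29.4 CPM in mock libraries, with an interval from -0.19 to 0.23. Msmo1, the methyl sterol oxidase, had 147 CPM in LysoPS replicate 1 and 78.1 CPM in LysoPS replicate 2, against 131 and 123 CPM in mock libraries. Its LysoPS replicates therefore lay on either side of mock: the log2 fold change was -0.17 ± 0.29 with all libraries, -0.70 (adjusted p = 0.00837) without LysoPS replicate 1 and 0.22 (adjusted p = 0.104) without LysoPS replicate 2.

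**Figure D3:**
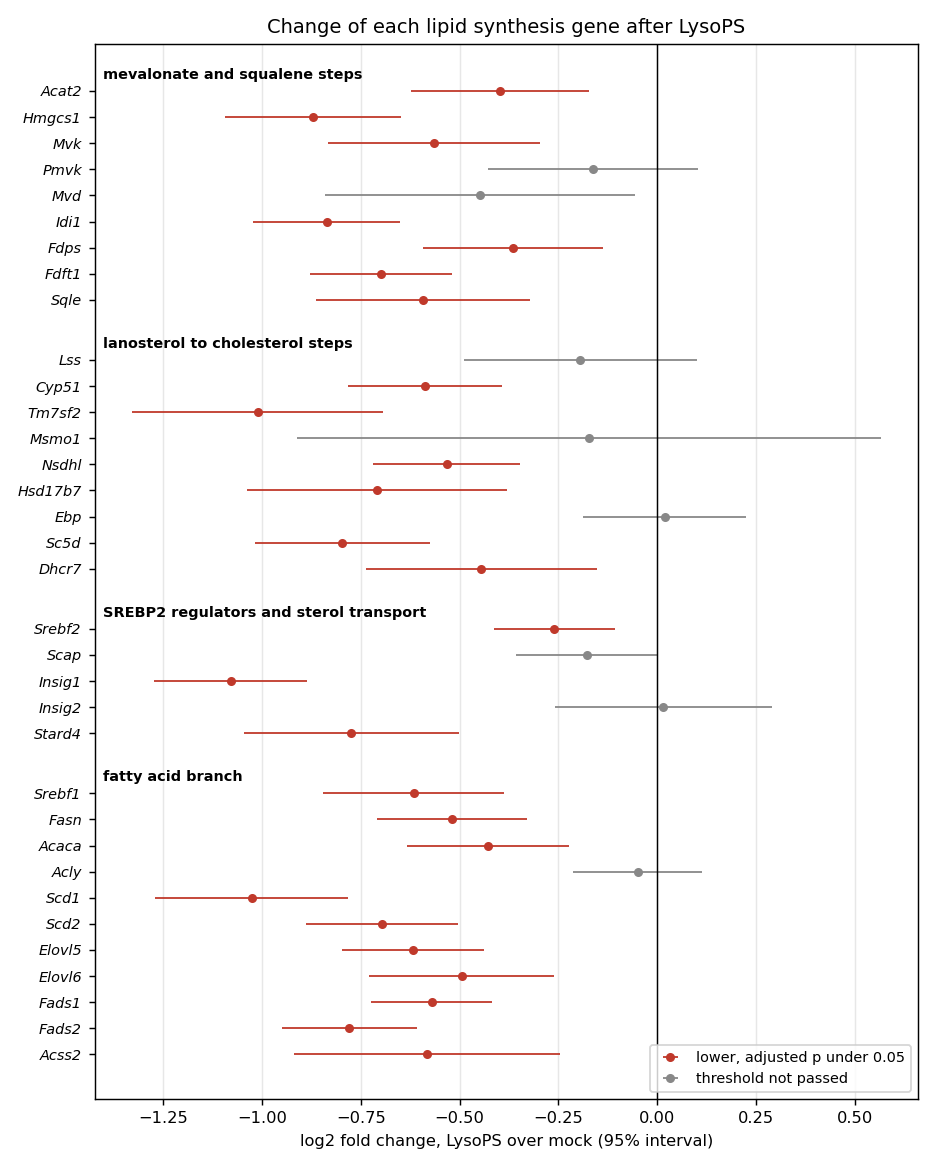
Log2 fold change of the 34 genes, LysoPS over mock, with 95% intervals of the edgeR fit that are not adjusted for the number of genes; red marks an adjusted p under 0.05 and grey the rest. All red points lie left of 0, from -0.26 for Srebf2 to -1.08 for Insig1, and the grey interval of Msmo1 is wide.

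Among the regulators, Insig1 and Insig2 had the most and the least negative log2 fold changes. Insig1 (ENSMUSG00000045294, chromosome 5, 28071363 to 28078662), itself a well-known SREBP target, had 53.5 and 55.2 CPM in LysoPS libraries and 111 and 119 CPM in mock libraries. Insig2 (ENSMUSG00000003721, chromosome 1, 121304353 to 121332589), a related anchor that is not a typical SREBP target, had 33.4 and 33.7 CPM in LysoPS libraries and 36.1 and 30.4 CPM in mock libraries. Insig1 was thus separate between groups and Insig2 overlapped. The log2 fold change of Insig1, -1.08 ± 0.08 (adjusted p = 0.00137), was the largest of the 34 members, while that of Insig2 was 0.02 ± 0.11 (adjusted p = 0.934, interval from -0.26 to 0.29). Per length, the Insig1 to Insig2 ratio of TPM was 1.35 and 1.41 in LysoPS libraries and 2.55 and 3.06 in mock libraries, with the exact two-sided p at its lowest possible value, 0.333.

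Srebf2, which encodes SREBP2, had 231 and 227 CPM in LysoPS libraries and 280 and 269 CPM in mock libraries. Its log2 fold change was small, -0.26 ± 0.06 (adjusted p = 0.0335), and the call was lost on leaving out mock replicate 1 (-0.23, adjusted p = 0.230), mock replicate 2 (-0.29, 0.155), LysoPS replicate 1 (-0.28, 0.0501) or LysoPS replicate 2 (-0.25, 0.0519). Scap, the escort, had 83.3 and 84.2 CPM in LysoPS libraries and 97.1 and 92.3 CPM in mock libraries and did not pass (-0.18, adjusted p = 0.131, interval from -0.36 to 0.00), although it did on log2(TPM + 1) with limma (-0.38, adjusted p = 0.0418). Stard4, a cytosolic sterol carrier, had 41.7 and 47.1 CPM in LysoPS libraries against 71.0 and 80.8 CPM in mock libraries. Its groups were separate, with a log2 fold change of -0.77 ± 0.11 (adjusted p = 0.00803).

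In the fatty acid branch the regulator itself fell. Srebf1, which encodes SREBP1, had 122 and 107 CPM in LysoPS libraries and 180 and 171 CPM in mock libraries. The log2 fold change was -0.62 ± 0.09 (adjusted p = 0.00933). Rai1 overlaps it on the opposite strand with up to 31.8% as many counts. The TPM ratio of Srebf2 to Srebf1 was 1.33 and 1.44 in LysoPS libraries and 1.08 and 1.08 in mock libraries, an exact two-sided p of 0.333. Acly, which releases cytosolic acetyl-CoA from citrate and so feeds both branches, had 239 and 253 CPM in LysoPS libraries and 251 and 258 CPM in mock libraries. Acly was the only fatty acid member that did not pass (-0.05, adjusted p = 0.615, interval from -0.21 to 0.11).

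Of the enzymes that supply and build the chain, 4 of 5 fell, beside 12.6% of all genes tested. Those 4 fell by 0.43 to 0.58 on the log2 scale. Fasn, fatty acid synthase, had 283 and 261 CPM in LysoPS libraries and 375 and 405 CPM in mock libraries. Acaca, acetyl-CoA carboxylase, fell by 0.43 on the log2 scale, Acss2, which activates acetate, by 0.58, and Elovl6, an elongase of saturated chains, by 0.50. Fasn changed by -0.52 ± 0.07 (adjusted p = 0.00884), and without mock replicate 2 it stood at -0.46 (adjusted p = 0.0557). The calls of Acaca (-0.42, adjusted p = 0.0993), Elovl6 (-0.52, 0.0762) and Acss2 (-0.43, 0.132) were lost without mock replicate 1. Acaca (-0.44, 0.0914) and Elovl6 (-0.47, 0.0959) also lost theirs without mock replicate 2, and Acss2 (-0.50, 0.0666) without LysoPS replicate 2. Acss2 overlaps Gss and Ggt7 on the opposite strand, and Gss held up to 141% as many counts.

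The desaturases Scd1 and Fads2 had the largest changes of the branch. Scd1 (ENSMUSG00000037071, chromosome 19, 44394451 to 44407709, minus strand) had 263 and 312 CPM in LysoPS libraries and 574 and 599 CPM in mock libraries. Scd2 (ENSMUSG00000025203, chromosome 19, 44293676 to 44306864, plus strand) had 2228 and 2525 CPM in LysoPS libraries and 3806 and 3894 CPM in mock libraries. Neither gene's groups overlapped, and the log2 fold changes were -1.03 ± 0.10 for Scd1 (adjusted p = 0.00287) and -0.70 ± 0.08 for Scd2 (adjusted p = 0.00421). The TPM ratio of Scd2 to Scd1 was 7.50 and 7.18 in LysoPS libraries and 5.88 and 5.76 in mock libraries (exact two-sided p = 0.333). The neighbouring paralogs Scd4 and Scd3, named after their values were seen, were rare, with 64 and 97 counts for Scd4 in LysoPS libraries and 153 and 241 in mock libraries. Scd4 fell by 1.35 on the log2 scale (adjusted p = 0.00708). Scd3, with 16 and 14 counts in LysoPS libraries and 32 and 53 in mock libraries, stood at -1.52 (adjusted p = 0.0336). The Scd3 call was lost with DESeq2 (-1.51, adjusted p = 0.0824) and on leaving out mock replicate 1 (-1.63, adjusted p = 0.103), mock replicate 2 (-1.39, 0.182) or LysoPS replicate 2 (-1.24, 0.0910). How reads shared between these similar genes were counted is not given in the sources used here.

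The members that make polyunsaturated fatty acids are Fads2, Fads1 and Elovl5, and each fell. Fads2 (ENSMUSG00000024665, chromosome 19, 10064164 to 10101503, minus strand) had 307 and 334 CPM in LysoPS libraries and 557 and 542 CPM in mock libraries. Fads1, the delta-5 desaturase (ENSMUSG00000010663, chromosome 19, 10182888 to 10196870, plus strand), had 274 and 270 CPM in LysoPS libraries and 414 and 394 CPM in mock libraries. Elovl5, the elongase that acts between them, had 137 and 148 CPM in LysoPS libraries and 218 and 220 CPM in mock libraries. Each gene's LysoPS values lay clear of its mock values. The log2 fold changes were -0.78 ± 0.07 for Fads2 (adjusted p = 0.00234), -0.57 ± 0.06 for Fads1 (0.00387) and -0.62 ± 0.07 for Elovl5 (0.00480). The third gene of the cluster, Fads3 (chromosome 19, 10041548 to 10059671), named after its value was seen, had 61.0 ± 3.60 CPM in LysoPS and 54.3 ± 0.408 CPM in mock cultures (SD, n = 2 each). It did not pass (0.17, adjusted p = 0.187, interval from -0.03 to 0.37).

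Further genes of these pathways were described from lists outside the 34 members. Of 11 further sterol pathway genes, 6 fell, 1 rose and 4 did not pass, with a median of -0.49, beside 12.6% of all genes lower and 12.8% higher. Mmab, an enzyme of vitamin B12 metabolism that lies head to head with Mvk, fell by 0.76 on the log2 scale (adjusted p = 0.00577). The gene that rose, named after its value was seen, was Nus1, a subunit of the enzyme that makes dolichol from farnesyl diphosphate, with 107 ± 3.97 CPM in LysoPS and 77.1 ± 4.60 CPM in mock cultures. Its call (0.48, adjusted p = 0.0134) was lost on leaving out mock replicate 1 (0.42, adjusted p = 0.0951) or mock replicate 2 (0.54, 0.0514), and on TPM (0.30, 0.0912).

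Of 12 genes of SREBP processing and sterol-regulated protein degradation, 3 fell, 1 rose and 8 did not pass, with a median of -0.05. With 25.5% of all genes called in either direction, that is no more than a share near the background, and the called genes are given as single values. Mbtps1, the site-1 protease that cuts SREBPs in the Golgi, fell by 0.42 on the log2 scale (adjusted p = 0.00927). Erlin2 fell by 0.38 (adjusted p = 0.0168) and its partner Erlin1 rose by 0.39 (adjusted p = 0.0286), and both are endoplasmic reticulum proteins that bind cholesterol. March6, a ubiquitin ligase that degrades squalene epoxidase, fell by 0.42 (adjusted p = 0.0448), a call lost on leaving out LysoPS replicate 1 (-0.29, 0.0590), mock replicate 1 (-0.47, 0.104) or mock replicate 2 (-0.38, 0.176). Without mock replicate 1 the adjusted p-values were 0.0750 for Mbtps1 (-0.41), 0.0903 for Erlin2 (-0.40) and 0.0964 for Erlin1 (0.45). Without mock replicate 2 they were 0.0700 for Mbtps1 (-0.43) and 0.193 for Erlin1 (0.33), Erlin2 was not called either (-0.37), and without LysoPS replicate 2 Erlin1 stood at 0.35 (0.0563). On TPM it stood at 0.20 (0.189).

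Of 32 tested further fatty acid pathway genes, 9 fell, 5 rose and 18 did not pass, with a median of -0.18. Among all genes 12.6% were lower and 12.8% higher, so the share that rose was near the background. Of 4 acyl-CoA synthetases on the list, which attach fatty acids to coenzyme A, 2 rose, 1 fell and Acsl1 did not pass (-0.04, adjusted p = 0.877). Acsl5 stood at 145 ± 11.2 CPM in LysoPS and 40.0 ± 1.31 CPM in mock cultures (1.86, adjusted p = 0.000488). Acsl4, which prefers polyunsaturated chains such as arachidonic acid, stood at 80.6 ± 7.46 CPM in LysoPS and 31.1 ± 3.49 CPM in mock cultures (1.37, adjusted p = 0.00231). Acsl3, named after its value was seen, fell by 0.72 on the log2 scale (adjusted p = 0.00769). Hsd17b12, the ketoreductase of the chain elongation cycle, had 188 ± 0.0540 CPM in LysoPS and 81.9 ± 0.560 CPM in mock cultures (1.20, adjusted p = 0.000615). Lpin1, a phosphatidate phosphatase, fell to 26.2 ± 3.78 CPM in LysoPS cultures, against 52.0 ± 1.71 CPM in mock cultures (-0.99, adjusted p = 0.00561). In these libraries the astrocyte markers had a median of -1.06 and the microglia and macrophage markers one of 0.54, and their part in these changes was not tested.

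**Figure D4:**
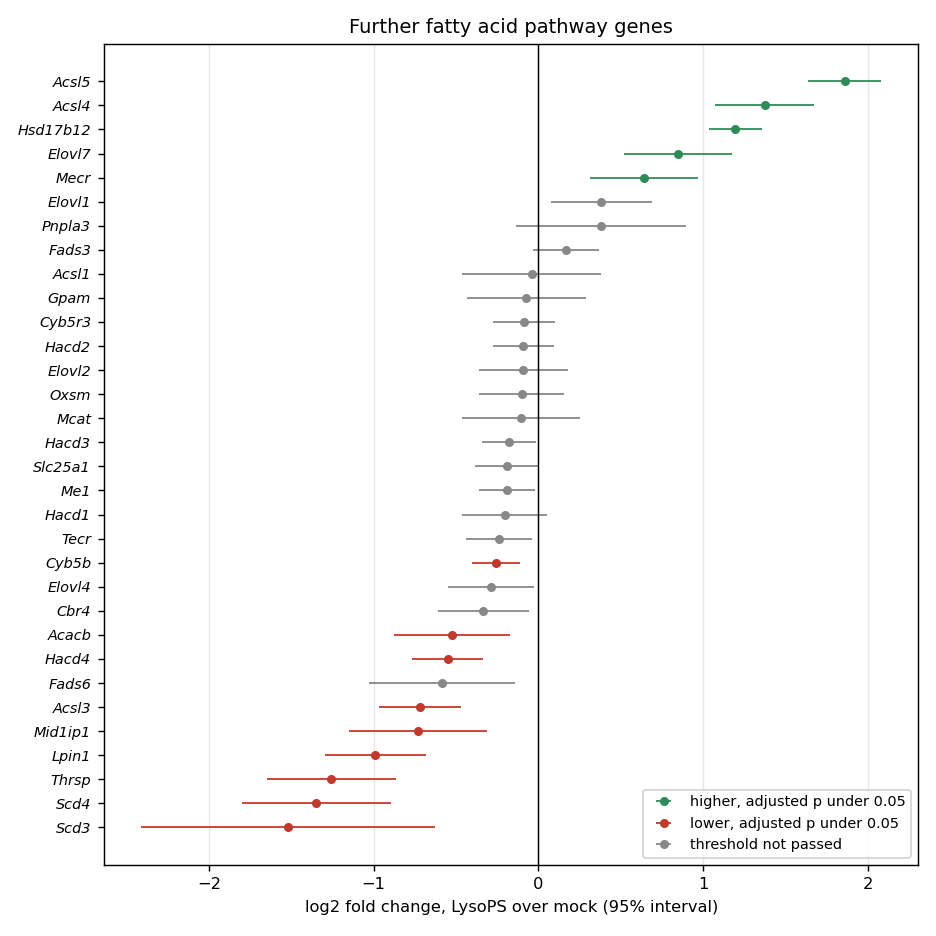
Log2 fold change, LysoPS over mock, of the 32 tested genes of the further fatty acid list with 95% intervals not adjusted for the number of genes; green marks higher and red lower at an adjusted p under 0.05. Acsl5, Acsl4 and Hsd17b12 lie at the top at 1.86, 1.37 and 1.20, and Scd3 and Scd4 at the bottom at -1.52 and -1.35.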

How the data were processed

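Messenger RNA of 2 LysoPS and 2 mock microglia libraries was sequenced paired-end after poly-T selection, per the labels' protocols. A protocol label speaks of 1 treated replicate, but 2 samples carry LysoPS in their own labels, which were followed. The build GRCm38 and the programs HISAT2, StringTie, Trimmomatic 0.36 and FastQC 0.11.2 are named in the submitters' processing notes; the counting program, annotation release and strand setting are not given in the sources used here. The authors deposited, per the file headers, counts (whole numbers, not normalized), TPM and FPKM for 51826 gene models; deposited FPKM served only to derive implied transcript lengths, and deposited TPM to compare levels between genes.

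Counts were analysed with edgeR 4.0.16 in R 4.3.3: filterByExpr (minimum count 10), TMM scaling (factors 0.966 to 1.04), and a two-sided quasi-likelihood F test without a block, on 2 residual degrees of freedom, adjusted by Benjamini-Hochberg over 19057 genes at 0.05. The fit was tested on simulated counts, in which all genes shared the same dispersion. It recovered 3 of 67 genes changed 1.5-fold, 50 of 67 changed 2-fold and 66 of 66 changed 4-fold. There were 4 false calls among 123 calls. Most changes of 1.5-fold were thus missed in the simulation. Only the genes counted above were changed among the 18736 fitted there, whereas 25.5% of genes were called in the data. The recovered shares may therefore not carry over to the data. Members, lists and the rule for named genes were chosen with earlier results of these data known. Named in full are, per role group, the 5 smallest p-values and the regulators, and per further list up to 4 genes with the smallest p. A few genes taken by this rule are left unreported here. Older symbols were matched through GENCODE M21 and RefSeq (GRCm38.p6), which also supplied lengths, GC content and promoters. Protein comparisons were not made. Alternatives were other scaling, filters and tests (DESeq2 1.42.0, limma 3.58.1), a replicate block, and leaving out each library.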

Additional observations from a re-analysis of the deposited data

How the results depend on the processing

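None of the 26 members that fell changed direction under any of 15 alternatives. Besides the null of a 1.5-fold change, 14 of the 26 were called under each alternative, and 4 (Hmgcs1, Idi1, Insig1 and Scd1) were called under that null too. Against that null the fallen members numbered 3 in the sterol and 1 in the fatty acid branch, the further pathway genes 4 lower (18 in the reported fit) and 3 higher (7), and all genes called 1064 (4854). With each library left out in turn, the sterol count ranged from 9 to 16, the fatty acid count from 7 to 10, the further genes from 9 to 16 lower and 3 to 8 higher, and all genes called from 2165 to 5356. Tested on log2(TPM + 1) with limma, 18 sterol members fell, and 24 further genes were lower and 4 higher. Signs turned only for values that did not pass: Ebp (-0.15 on TPM, -0.00064 with a filter of 5 CPM in 2 libraries, and -0.0152 to 0.0527 over the fits without 1 library), Insig2 (-0.22 on TPM, -0.0043 with that filter, and -0.10 to 0.14 over those fits), Acly (0.0101 with length and GC trends removed), Msmo1 (-0.70 to 0.22 over those fits) and Fads3 (-0.00641 on TPM). The cause was not tested. No label says that replicate numbers pair the samples, and deviations of same-numbered libraries correlated by 0.0775. With the replicate block 17 sterol and 10 fatty acid members fell, and 5433 genes were called. The lowest count of a member in any library was 375 (Tm7sf2).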
